A study of Mus musculus with 4 samples.

Results

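The 10 genes examined here carry antigen presentation by the major histocompatibility complex (MHC). They were picked by symbol from 32285 features, and each had 1 row in every section. For class II they were H2-Aa, H2-Ab1 and H2-Eb1 (chains of the class II dimers), Cd74 (the invariant chain), H2-DMa and H2-DMb1 (the peptide-loading dimer) and Ciita (the class II transactivator). For class I they were the heavy chains H2-K1 and H2-D1 and their partner B2m (beta-2 microglobulin). RNA had been captured in place, on frozen sections of the tibial muscle of Nse-Bmp4 mice (C57BL/6 background, 6 to 8 weeks old). These mice express a Bmp4 cDNA from the neuron-specific enolase promoter and form bone in muscle (heterotopic ossification, HO) after injury. There was 1 section of uninjured muscle (day 0) and 1 each of muscle taken on day 1, day 3 and day 7 after an injection of cardiotoxin (CTX, named in the study's methods), written below as days post-injury (dpi). All 4 sections carried the transgene, no wild-type section was analysed here, and the labels state that 3 muscles were mixed per group without saying how these map onto a section.

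Class I molecules sit on nearly all nucleated cells and display peptides that the proteasome cuts and the TAP transporter carries into the endoplasmic reticulum. Class II molecules belong mainly to dendritic cells, macrophages and B cells. Their dimers travel with the invariant chain, which cathepsins and other lysosomal enzymes trim away before the DM dimer exchanges its last fragment for peptide. CIITA switches on the class II genes and NLRC5 the class I genes, both through a shared promoter module, and interferon gamma is the classical inducer of each. In C57BL/6 mice the dimer of H2-Aa and H2-Ab1 is the class II molecule at the surface. The partner chain of H2-Eb1, H2-Ea, is annotated as a transcribed pseudogene and was not among the features. The UMIs of H2-Eb1 are counted below with those of the dimer chains, whether or not a dimer can form.

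Of the member genes outside chromosome 17, B2m lies at chr2:122147687-122153082 and Ciita at chr16:10480014-10531064 (mouse build GRCm38.p6). H2-K1 (chr17:33996012-34000619), H2-DMa (chr17:34119693-34139101), H2-DMb1 (chr17:34153191-34160229), H2-Ab1 (chr17:34263227-34269418), H2-Aa (chr17:34282744-34287823), H2-Eb1 (chr17:34305867-34316674) and H2-D1 (chr17:35263094-35267497) lie in the MHC itself. Stretches near the listed starts are shown because class I and class II members carried the same pair of short motifs there. Windows of 300 bases from the RefSeq promoter table, 250 before and 50 after the start, were used for 7 of the members. The pair was TGANG, then 15 to 25 bases, then ATTGG, searched on both strands, and it was chosen after the sequences had been seen. It was found in 6 of these 7 members, against 3.19% of the 27025 genes in the whole table. It was not matched in the windows of H2-DMa. Capitals mark the pair and, in H2-D1 and B2m, also AANTGAAA or its reverse complement, an interferon-response-like motif. All are written 5′ to 3′ on the gene's strand. The stretch of H2-K1 lies upstream of the table's start but inside the annotated gene, which reaches further upstream.
H2-Aa, chr17:34287857-34287927, minus strand: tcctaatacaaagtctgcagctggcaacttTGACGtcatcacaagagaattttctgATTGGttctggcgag
H2-Eb1, chr17:34305754-34305822, plus strand: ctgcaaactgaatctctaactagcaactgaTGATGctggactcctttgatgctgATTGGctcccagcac
H2-DMb1, chr17:34153075-34153144, plus strand: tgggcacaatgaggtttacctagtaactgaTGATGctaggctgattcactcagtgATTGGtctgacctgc
H2-K1, chr17:34000359-34000388, minus strand: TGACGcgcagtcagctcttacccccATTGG
H2-D1, chr17:35262934-35263032, plus strand: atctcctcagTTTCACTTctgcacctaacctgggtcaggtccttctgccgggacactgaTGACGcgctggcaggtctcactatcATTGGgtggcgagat
B2m, chr2:122147540-122147648, plus strand: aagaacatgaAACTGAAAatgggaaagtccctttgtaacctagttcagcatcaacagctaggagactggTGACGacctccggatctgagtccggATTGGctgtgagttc

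The gap between the paired motifs was 20 bases in H2-DMb1, H2-K1, H2-D1 and B2m, 21 in H2-Aa and 19 in H2-Eb1, and the pair began 41 (H2-K1) to 101 (H2-D1) bases before the start listed in the table. AANTGAAA was in the windows of all 3 class I members and in none of the 4 class II members whose windows were used. Of all genes in the table, 7.54% held it. Outside the members, the pair was also found in H2-Eb2, H2-DMb2 and H2-Ob of 13 other class II pathway genes with a window, in H2-M3, H2-Q4, H2-Q6 and H2-Q7 of 8 nonclassical class I genes, and in 0 of 11 class I pathway genes. A match of letters is a description and does not show that a factor binds there.

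The sections had 2107 to 3032 spots and 16777832 to 56113066 UMIs (unique molecular identifiers, 1 per captured RNA molecule), and day 1 was the shallowest, with a median of 6322 UMIs per spot against 12119.5 to 21029 in the others. Each spot covers several cells. Adult myofibre genes, from a list of 12, took 26.1% of UMIs at day 0, 14.4% at 1 dpi, 8.63% at 3 dpi and 15.1% at 7 dpi, so the tissue labelled as muscle had its defining RNA in all sections. Spot barcodes were shared between sections, 1341 of them by all 4. They come from a fixed array layout. With 1 section per day there is no spread between animals, no p-value is given, and all intervals are 95% intervals for counting error only. Levels are UMIs scaled to the section's total (CPM), from reads at the 3′ end of transcripts, so they are compared between days and not between genes. A ratio of genes or sets is read by its change between days or regions. Whether it lies above or below 1 tells only which had more UMIs counted.

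All 10 members were higher in each injured section than in uninjured muscle, and day 3 was the highest section for each of them. The class II members stood further above day 0 than the class I members on each day. In sums over a whole section, more cells of a type and more RNA per cell cannot be told apart. The share of all UMIs that fell on the 10 genes was 0.0852% in uninjured muscle, 0.156% at 1 dpi, 0.416% at 3 dpi and 0.268% at 7 dpi. Here "rose", "fell" and "changed" mean a difference of at least 2-fold between sections, without a test. At 1 dpi, 7 of 10 members rose, all of class II, where 17.4% of 15091 features with at least 10 UMIs over both sections rose and 12.7% fell. At 3 dpi, 10 of 10 rose, against 33.3% of features that rose and 8.26% that fell. At 7 dpi, 10 of 10 were again at least 2-fold above day 0, against 32.7% of features above and 2.13% below. The median log2 ratio of the members to day 0 was 1.70, 3.15 and 2.71 at 1, 3 and 7 dpi, beside 0.15, 0.58 and 0.65 over all features tested.

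**Figure D1:**
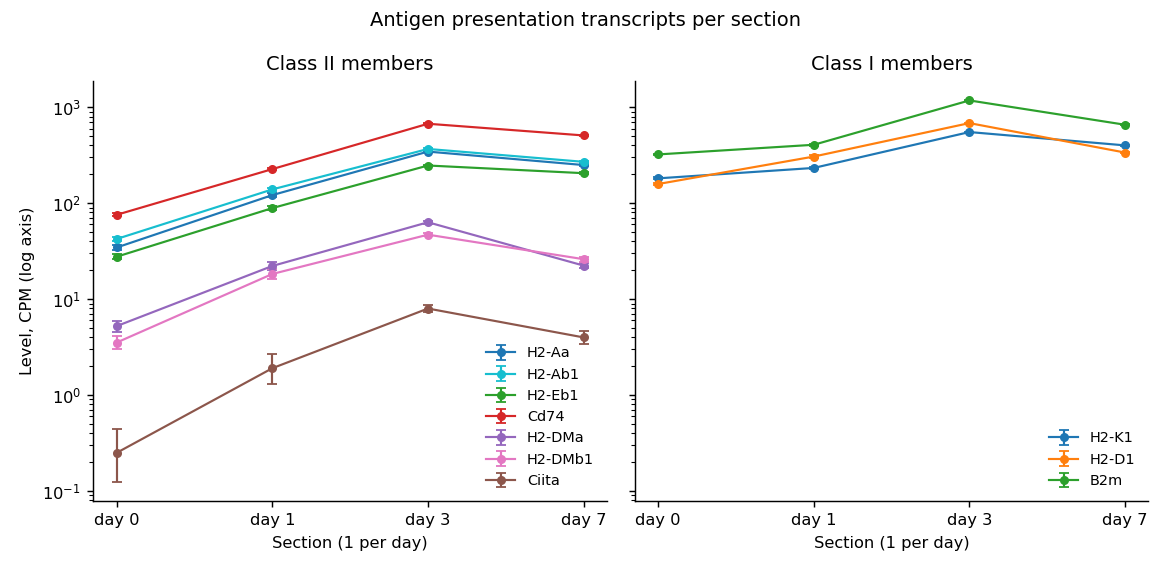
Level of each member in each section, in CPM on a log axis, with class II members on the left and class I members on the right. Points are single sections, 1 per day, and bars are 95% Poisson intervals. All 10 genes were highest at 3 dpi, and Ciita climbed from 0.251 to 7.98 CPM.

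H2-Aa, the alpha chain of the class II dimer, had 34.6 CPM at day 0 (32.8 to 36.3), 121 at 1 dpi (116 to 127), 345 at 3 dpi (340 to 350) and 250 at 7 dpi (245 to 255). H2-Ab1, its beta chain, had 42.4, 139, 367 and 270 CPM in the same order. H2-Eb1 had 27.7, 88.9, 247 and 205 CPM. The intervals of the 4 sections were apart for each of these chains, and each was 3.21 to 3.52 times its day 0 level at 1 dpi, 8.67 to 9.98 times at 3 dpi and 6.36 to 7.42 times at 7 dpi. Cd74, the invariant chain that fills the class II groove until loading, had 75.7, 227, 673 and 508 CPM, and its ratios to day 0 were 2.99, 8.88 and 6.71. Cd74 kept close to the dimer chains, with 0.724 UMIs per dimer UMI at day 0 (0.692 to 0.757), 0.648 at 1 dpi (0.622 to 0.675), 0.701 at 3 dpi and 0.701 at 7 dpi. H2-Eb1 per H2-Ab1 UMI lay between 0.639 and 0.672 through day 3 and was 0.761 at 7 dpi (0.740 to 0.783), above the intervals of the other sections.

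The summed class II set (H2-Aa, H2-Ab1, H2-Eb1 and Cd74) had 180 CPM at day 0, 576 at 1 dpi, 1632 at 3 dpi and 1233 at 7 dpi. Its log2 ratio to day 0 was 1.68 at 1 dpi (ratio 3.20, 3.10 to 3.29), 3.18 at 3 dpi (9.05, 8.84 to 9.26) and 2.77 at 7 dpi (6.84, 6.68 to 7.00). Scaling by edgeR TMM factors lowered the median of all features by 0.19, 0.55 and 0.61 on the log2 scale and left the class II set at 1.49, 2.63 and 2.17.

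H2-DMa and H2-DMb1 encode the dimer that exchanges the invariant chain fragment for peptide. H2-DMa had 5.24 CPM at day 0 (4.59 to 5.97), 22.2 at 1 dpi, 63.3 at 3 dpi and 22.4 at 7 dpi (21.0 to 23.9). H2-DMb1 had 3.53, 18.3, 47.0 and 26.1 CPM. Both rose more than the dimer chains at 3 dpi, 12.1-fold and 13.3-fold, and then H2-DMa fell back furthest of the 10 members. Its day 7 level was 0.354 times that of day 3 (0.329 to 0.380), against 0.555 for H2-DMb1 and 0.724 to 0.832 for the dimer chains. The loading pair had 8.39 UMIs per 100 dimer UMIs at day 0 (7.54 to 9.31), 11.6 at 1 dpi, 11.5 at 3 dpi and 6.68 at 7 dpi (6.39 to 6.99). H2-DMa per H2-DMb1 UMI was 1.48, 1.21 and 1.35 on days 0, 1 and 3 and 0.858 at 7 dpi (0.785 to 0.937), so the order of the partners' counts turned between days 3 and 7. H2-DMb1 and its neighbour H2-DMb2 are close copies, and reads shared between them were counted as the authors' software assigned them.

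Ciita, the transactivator on which class II transcription depends, was the scarcest member and had the largest ratio to day 0 of the 10 in each injured section. It had 11 UMIs at day 0, 32 at 1 dpi, 448 at 3 dpi and 167 at 7 dpi, or 0.251 CPM (0.125 to 0.449), 1.91 (1.30 to 2.69), 7.98 (7.26 to 8.76) and 3.99 (3.41 to 4.65). The ratios to day 0 were 7.61 (3.74 to 16.7), 31.8 (17.6 to 64.2) and 15.9 (8.67 to 32.5), and their width reflects the 11 UMIs of the uninjured section. On the log2 scale, the interval of Ciita overlapped that of H2-DMb1 at 1 dpi (1.90 to 4.06 against 2.09 to 2.66). It also did at 7 dpi (3.12 to 5.02 against 2.64 to 3.14), so on these days its first rank was within counting error. Per 1000 dimer UMIs, Ciita had 2.40 UMIs at day 0 (1.195 to 4.29), 5.46 at 1 dpi (3.73 to 7.71), 8.32 at 3 dpi (7.57 to 9.13) and 5.51 at 7 dpi (4.70 to 6.41). The intervals of days 1 and 7 overlapped, and that of day 1 also overlapped those of days 0 and 3.

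**Figure D2:**
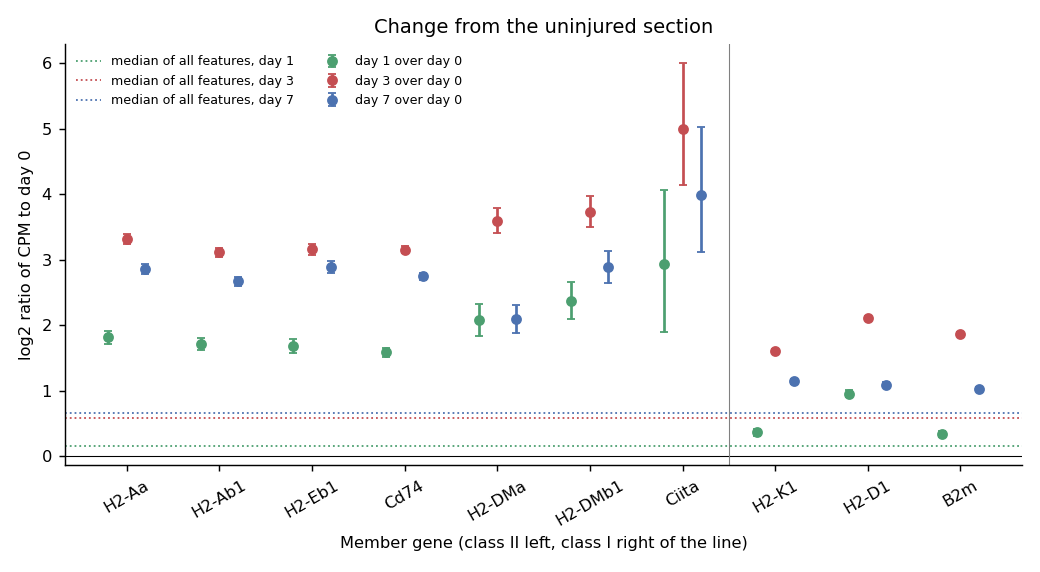
log2 ratio of CPM to the uninjured section for each member at 1, 3 and 7 dpi, with 95% counting intervals. Dotted lines mark the median over all features tested on each day, 0.15, 0.58 and 0.65. All 30 points lie above the line of their day, and those of H2-K1, H2-D1 and B2m lie nearest to it.

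H2-K1, a classical class I heavy chain, had 181 CPM at day 0 (178 to 186), 233 at 1 dpi, 551 at 3 dpi and 400 at 7 dpi (394 to 406). H2-D1, the other heavy chain of this haplotype, had 158, 306, 683 and 337 CPM. B2m, the light chain that all class I molecules need, had 322, 406, 1177 and 657 CPM. At 1 dpi the ratios to day 0 were 1.28 for H2-K1, 1.93 for H2-D1 and 1.26 for B2m, all short of 2-fold. At 3 dpi they were 3.04, 4.31 and 3.65, and at 7 dpi they were 2.21, 2.13 and 2.04. The heavy chains therefore took different courses. H2-D1 had 0.873 UMIs per H2-K1 UMI in uninjured muscle (0.845 to 0.902), 1.31 at 1 dpi (1.26 to 1.37), 1.24 at 3 dpi (1.22 to 1.26) and 0.842 at 7 dpi (0.823 to 0.861). H2-D1 had more UMIs counted at 1 and 3 dpi and H2-K1 at days 0 and 7. These genes and the H2-Q and H2-T genes share long stretches of sequence, so reads may have been lost or split between them.

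The class I set (H2-K1, H2-D1 and B2m) had 662 CPM at day 0, 945 at 1 dpi, 2412 at 3 dpi and 1394 at 7 dpi, with log2 ratios of 0.51, 1.86 and 1.07. With TMM factors these became 0.32, 1.31 and 0.47. At 7 dpi none of the 3 class I genes was then at least 2-fold above day 0. The 7 class II members still were, as were 2547 of 16092 features. The balance between the routes does not depend on the scaling. There were 0.272 class II UMIs per class I UMI in uninjured muscle (0.266 to 0.279), 0.610 at 1 dpi (0.594 to 0.625), 0.677 at 3 dpi (0.671 to 0.682) and 0.884 at 7 dpi (0.874 to 0.895). The order of the days was day 0, day 1, day 3 and day 7, with no overlap of intervals. It was the same without Cd74 (0.158, 0.370, 0.398 and 0.520) and without B2m (0.531, 1.07, 1.32 and 1.67). From day 3 to day 7 the class II set went to 0.756 of its level (0.747 to 0.764) and the class I set to 0.578 (0.573 to 0.584). Of the members only H2-DMa and H2-D1 fell at least 2-fold over that interval, and 0 rose, where 11.9% of 16670 features fell and 16.1% rose. Ciita stood just outside, at 0.50002 of its day 3 level, with an interval from 0.416 to 0.599.

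The other genes of the class II route were given by a list of 16, of which 15 were features. At 3 dpi, 9 of the 15 rose and 0 fell, where 33.3% of all features rose and 8.26% fell. Cathepsin S (Ctss), which makes the last cuts in the invariant chain, had 9.85 CPM at day 0, 144 at 1 dpi, 1060 at 3 dpi and 111 at 7 dpi. Legumain (Lgmn), an endosomal protease, had 58.3, 500, 997 and 230 CPM. Ifi30, the lysosomal thiol reductase that unfolds antigens, had 20.7, 85.8, 202 and 56.5 CPM, and March1, a ligase that sends surface class II for degradation, had 0.684, 3.40, 10.6 and 2.73 CPM. From day 3 to day 7, 11.9% of all features fell. These 4 genes were among them, at 0.104, 0.231, 0.279 and 0.258 of their day 3 level, and no other gene of the 15 was. The dimer chains and Cd74, at 0.724 to 0.832, were not in step with these 4 genes. H2-Oa and H2-Ob, whose product restrains the DM dimer, stayed at 0.911 and 0.974 of their day 3 level, on 53 to 84 UMIs.

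**Figure D3:**
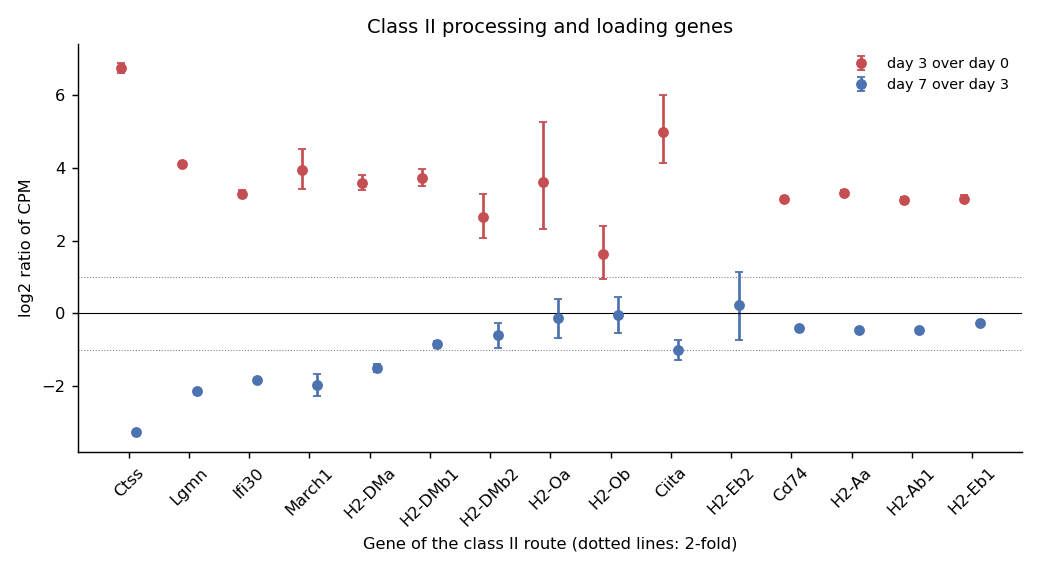
log2 ratio of CPM for genes of the class II route, day 3 over day 0 in red and day 7 over day 3 in blue, with 95% counting intervals and dotted lines at 2-fold. H2-Eb2 has no red point because it had 0 UMIs at day 0. Ctss, Lgmn, Ifi30, March1 and H2-DMa lie below the lower dotted line in blue and the dimer chains and Cd74 above it.

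Of the promoter-binding partners of CIITA, Nfya was 2.77-fold above day 0 at 3 dpi and 2.37-fold at 7 dpi, and Rfx5 was 2.14-fold above it at 7 dpi. Rfxap, Rfxank, Nfyb, Nfyc and Creb1 stayed between 0.675 and 1.57 times their day 0 level on all injured days. Across the list, 6 of 14 genes that passed the minimum were at least 2-fold above day 0 at 1 dpi, 9 of 15 at 3 dpi and 10 of 15 at 7 dpi. Of all features 17.4%, 33.3% and 32.7% were. With TMM factors the day 7 count of the list was 6, beside 2547 of 16092 features.

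Of the 14 class I pathway genes, 7 were at least 2-fold above day 0 at 1 dpi, 12 at 3 dpi and 7 at 7 dpi. Of all features 17.4%, 33.3% and 32.7% were. None of the 14 was 2-fold below day 0 in any section. The shares of all features that were lay at 12.7% at 1 dpi, 8.26% at 3 dpi and 2.13% at 7 dpi. With TMM factors the counts at 3 and 7 dpi were 7 and 2, beside 3377 of 16281 and 2547 of 16092 features. Tap1, a chain of the peptide transporter, had 7.00, 29.98, 35.3 and 22.9 CPM, so 4.28 times its day 0 level had already been reached at 1 dpi, when H2-K1 and B2m stood at 1.28 and 1.26. Tap2, its partner chain, was at 1.43 times its day 0 level at 1 dpi and at 2.41 at 3 dpi. The immunoproteasome subunits Psmb8, Psmb9 and Psmb10 had ratios of 3.16, 2.55 and 2.22 at 1 dpi and 4.77, 4.41 and 3.31 at 3 dpi. Psmb8 and the proteasome activator Psme2 then fell to 0.437 and 0.443 of their day 3 level. Nlrc5, the class I counterpart of Ciita, had 51, 66, 449 and 189 UMIs, or 1.16, 3.93, 8.00 and 4.52 CPM. Tapbp, which bridges class I to the transporter, differed from these in being highest at 7 dpi, at 2.30 times day 0 against 1.88 at 3 dpi.

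Of 10 nonclassical class I genes, 2 rose and 1 fell at 1 dpi (17.4% and 12.7% of all features did), 4 rose at 3 dpi (33.3%) and 6 were at least 2-fold above day 0 at 7 dpi (32.7%). The shares at 1 and 3 dpi were near those of all features. H2-T23 (Qa-1, a ligand of inhibitory NK receptors) had 11.4, 17.2, 48.1 and 23.2 CPM, and H2-M3 had 3.12, 8.52, 16.8 and 6.72 CPM, so both were highest at 3 dpi as the members were. Fcgrt, the neonatal Fc receptor chain that pairs with B2m, had 72.9, 34.3, 110 and 160 CPM, and Cd1d1, which displays lipids, had 1.98, 2.38, 2.87 and 5.76 CPM. Both were highest at 7 dpi. With TMM factors 1 of the 10 was at least 2-fold above day 0 at 7 dpi, beside 2547 of 16092 features.

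Interferon gamma itself was barely captured, with 2 Ifng UMIs at day 0, 0 at 1 dpi, 2 at 3 dpi and 1 at 7 dpi. At 1 dpi the floor of 3 counts lay at 0.179 CPM, and a count of 0 does not show absence. Of 8 receptor and signalling genes of interferon gamma input that passed the minimum, Irf8 rose at 1 dpi, and 4, with Irf8 among them, were at least 2-fold above day 0 at 3 and 7 dpi. Irf8 had 5.01, 23.2, 49.3 and 19.8 CPM, and Irf1, an interferon-induced transcription factor, had 8.82, 16.99, 27.6 and 26.3 CPM. The receptor chains Ifngr1 and Ifngr2 were at 0.953 and 1.01 times day 0 at 1 dpi and at 1.99 and 1.41 times at 3 dpi. A list of 12 interferon gamma response genes held guanylate-binding proteins, interferon-inducible GTPases and Cxcl9, a chemokine for T cells. Of these, 1 rose and 2 fell at 1 dpi, where 17.4% and 12.7% of all features did. At 3 dpi 2 rose and 1 fell, against 33.3% and 8.26%, and at 7 dpi 6 were at least 2-fold above day 0, against 32.7%. Cxcl9 had 3.83, 1.37, 5.56 and 12.3 CPM and Iigp1 8.27, 4.71, 7.41 and 22.3 CPM, both highest at 7 dpi. Type I interferon response genes were above day 0 earlier, 7 of 9 at 1 dpi and 8 of 9 at 3 and 7 dpi. Irf7, their amplifier, had 5.81, 43.8, 83.7 and 23.9 CPM. With TMM factors 2 of the 8 input genes and 1 of the 12 interferon gamma response genes were at least 2-fold above day 0 at 7 dpi. So were 4 of the 9 type I genes, beside 2547 of 16092 features.

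A list of genes whose products a T cell meets along with the MHC held the co-stimulatory Cd80, Cd86, Cd40 and Icosl. It also held Cd274 and Pdcd1lg2, whose products restrain T cells, so its counts mix both kinds. At least 2-fold above day 0 were 4 of 5 that passed the minimum at 1 dpi (17.4% of all features), with Cd274 among them. At 3 dpi 6 of 6 were (33.3%), and at 7 dpi 5 of 5 (32.7%). Cd86 had 1.55, 5.13, 7.22 and 4.398 CPM, Cd40 had 1.66, 5.54, 8.06 and 5.14 CPM, and Cd80 had 4, 11, 124 and 48 UMIs. From day 3 to day 7 none of them fell 2-fold, and Cd80 and Cd86 stood at 0.519 and 0.609 of their level. With TMM factors 2 were at least 2-fold above day 0 at 7 dpi, beside 2547 of 16092 features.

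Markers of macrophages and dendritic cells, which are known to carry class II, were also higher after injury. All 10 genes of the monocyte/macrophage list rose at 3 dpi (33.3% of all features did), and 9 of 10 were at least 2-fold above day 0 at 7 dpi (32.7%). Their summed level was 441, 1506, 7608 and 2017 CPM over the 4 sections. Of 10 dendritic cell genes, 9 rose at 3 dpi, with a summed level of 22.9, 44.6, 78.2 and 77.9 CPM. Of 6 B cell genes, the defining Ms4a1 and Pax5 were at or near 0, with 1 to 4 and 0 or 1 UMIs per section, and the list's 1.03, 2.80, 4.17 and 3.08 CPM came mostly from Cd79b, with 33, 36, 214 and 94 UMIs. The 8 T cell genes had 50, 19, 490 and 390 UMIs in all, and the 5 NK cell genes 15, 14, 523 and 196. The 7 neutrophil genes had 1.55, 161, 55.6 and 7.86 CPM. The part of these cells in the class II and class I levels was not tested.

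Relative to macrophage RNA, class II RNA was lowest at 3 dpi and highest at 7 dpi. There were 40.9 class II UMIs per 100 macrophage UMIs in uninjured muscle (39.8 to 42.0), 38.3 at 1 dpi (37.4 to 39.2), 21.5 at 3 dpi (21.3 to 21.6) and 61.1 at 7 dpi (60.5 to 61.8). Day 3 stayed lowest and day 7 highest when Lyz2 was left out of the list (59.2, 77.9, 48.2 and 111) and when C1qa, C1qb and C1qc were (75.8, 52.0, 32.0 and 105), but the order of days 0 and 1 turned without Lyz2. From day 3 to day 7 the macrophage list went to 0.265 of its level and the class II set to 0.756. Against the dendritic cell list the course differed, with 7.87 class II UMIs per dendritic cell UMI at day 0 (7.37 to 8.42), 12.9 at 1 dpi, 20.9 at 3 dpi (20.3 to 21.5) and 15.8 at 7 dpi. Class I RNA per 100 macrophage UMIs was 150.1, 62.8, 31.7 and 69.1.

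Class II RNA was also found in more of the spots. After each spot was thinned to 2000 UMIs, which left out 17, 513, 9 and 84 spots at days 0, 1, 3 and 7, the share of spots with a class II set UMI was 24.96%, 54.0%, 80.0% and 68.2%. Without thinning it was 76.6%, 78.4%, 98.5% and 93.1%, where depth differs between sections. For the class I set the thinned shares were 69.0%, 73.5%, 91.0% and 87.5%. In the quintile of spots richest in adult myofibre RNA, where class II should be scarce, the class II share was 18.6%, 44.6%, 60.0% and 52.8%, and in the quintile poorest in it 27.4%, 73.7%, 96.2% and 78.7%. The median depth of these spots before thinning was 20528, 8206, 9717.5 and 10616 UMIs in the myofibre-richest quintile and 22819.5, 4865, 24713.5 and 13897.5 in the poorest. The share was lower in the myofibre-richest spots in each section. H2-Aa was seen in 6.41%, 19.7%, 39.4% and 27.6% of thinned spots and Ciita in 0.0565%, 0.468%, 1.39% and 0.727%.

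Within each section the class II set followed the macrophage markers. Spots were divided into quintiles, 5 groups of equal size, by the macrophage list's share of their UMIs. In uninjured muscle the class II set had 79.0 CPM in the lowest quintile (73.0 to 85.4) and 392 in the highest (379 to 406), a ratio of 4.97. The ratio was 5.62 at 1 dpi, 5.54 at 3 dpi and 8.27 at 7 dpi (7.92 to 8.65). At 1 dpi the spots of the highest quintile were also shallower, with a median of 2205 UMIs against 6332.5 in the lowest. The class I set behaved otherwise at the ends of the series, with ratios of 1.98 at day 0 (1.90 to 2.05), 4.46 at 1 dpi, 5.56 at 3 dpi and 2.92 at 7 dpi (2.84 to 3.01). In uninjured muscle each class I gene was 1.89 to 2.10 times higher in the highest quintile and each class II dimer chain 4.52 to 4.83 times. At 3 dpi the ranges met, at 5.00 to 5.83 for class I and 5.30 to 5.44 for the dimer chains, and at 7 dpi they were apart again, at 2.69 to 3.41 and 7.57 to 8.82.

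**Figure D4:**
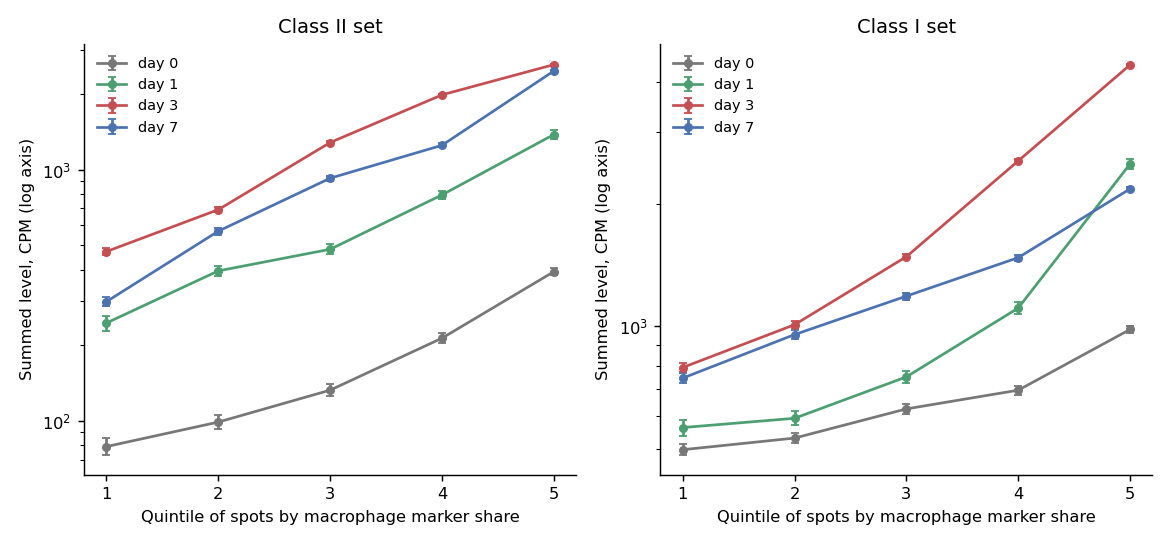
Summed level of the class II set (left) and class I set (right), in CPM on a log axis, in quintiles of the spots of each section ordered by macrophage marker share, with 95% Poisson intervals. Both sets climb from quintile 1 to quintile 5 in all sections. At 7 dpi class II in quintile 5 came to 2467 CPM, close to the 2615 CPM of day 3, while class I reached 2179 against 4399.

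The spots richest in macrophage markers thus had nearly the same class II level at 3 and 7 dpi, 2615 CPM (2590 to 2640) and 2467 CPM (2438 to 2496), while their macrophage list stood at 15138 and 4478 CPM. In the same spots the class II to class I ratio was 0.594 at 3 dpi and 1.13 at 7 dpi (1.11 to 1.15). The lowest quintile at 7 dpi had a ratio of 0.400. Across spots thinned to 2000 UMIs, Spearman's rho of the class II set with the macrophage list was 0.148 at day 0, 0.327 at 1 dpi, 0.569 at 3 dpi and 0.391 at 7 dpi, over 2090, 2154, 3020 and 2948 spots. Given the adult myofibre share it was 0.139, 0.258, 0.259 and 0.321, so day 3 was then no longer the highest. The coefficient for the class II set with the class I set was 0.093, 0.286, 0.481 and 0.2003. Given the myofibre share it was 0.078, 0.187, 0.177 and 0.117, and here too day 3 was no longer the highest. With the dendritic cell list the coefficient was 0.057, 0.162, 0.170 and 0.095. Given the myofibre share it was 0.053, 0.112, 0.090 and 0.069, and day 3 was again no longer the highest. Spots of a section share a library and the counts are sparse, so these values describe the sections and have no p.

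To see where in the tissue each route was strongest, spots of a section were clustered without any of the listed genes, and the resulting 29 regions are called by their leading genes. In uninjured muscle the class II set was highest, 353 CPM (337 to 369), in the region led by Sfrp4, Sfrp2, Eln, Tagln and Myh11, genes of connective tissue and vessel walls. The macrophage list was also highest there, at 958 CPM. The class I set was highest, 1160 CPM, in the region led by the fat genes Pck1, Cidec, Hp, Cyp2e1 and Cfd, where class II had 246 CPM. The region led by Mical2 and Actc1 was the lowest for both, with 96.9 and 443 CPM. With a finer clustering (resolution 1 in place of 0.5) class I was again highest in a region with fat genes in the lead, Nnat, Pck1 and Cidec, at 1620 CPM, but the 3 regions highest in class II, at 331 to 341 CPM, had overlapping intervals and that region was among them.

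At 1 dpi both sets were highest in the region led by Slfn4, Oas2, Clec10a, Spp1 and Retnla, with 1343 CPM of class II and 2407 of class I. The macrophage list was also highest there, at 3812 CPM. The lowest class II level, 255 CPM, was in the region with Inmt, Cyp2e1, Pck1 and Cidec among its leading genes, where class I had 926 CPM and the ratio was 0.275 (0.244 to 0.310), the lowest ratio of that section. At 3 dpi both sets were highest in the region led by Spp1, Slfn4, Adam8, Sfrp2 and Lilr4b, with 2746 and 4781 CPM over 546 spots. That region had 14516 CPM of the macrophage list, and 18.9 class II UMIs per 100 macrophage UMIs. The region led by Mest, Mymx, Myh3, Msln and Mymk had 2051 CPM of class II and 3096 of class I. Of its leading genes, Mymx, Mymk and Myh3 belong to fusing and newly formed muscle fibres. Its macrophage list stood at 11702 CPM, below only that of the region led by Spp1 and Slfn4 in this section. With 17.5 class II UMIs per 100 macrophage UMIs, it had the lowest such ratio of the section. The part of macrophages in its class II and class I levels was not tested. More UMIs were counted for class II than for class I at 3 dpi in the 129 spots of the region with Chrne, Igha, Lrtm1 and Odf3l2 among its leading genes, with a ratio of 1.17 (1.11 to 1.22).

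**Figure D5:**
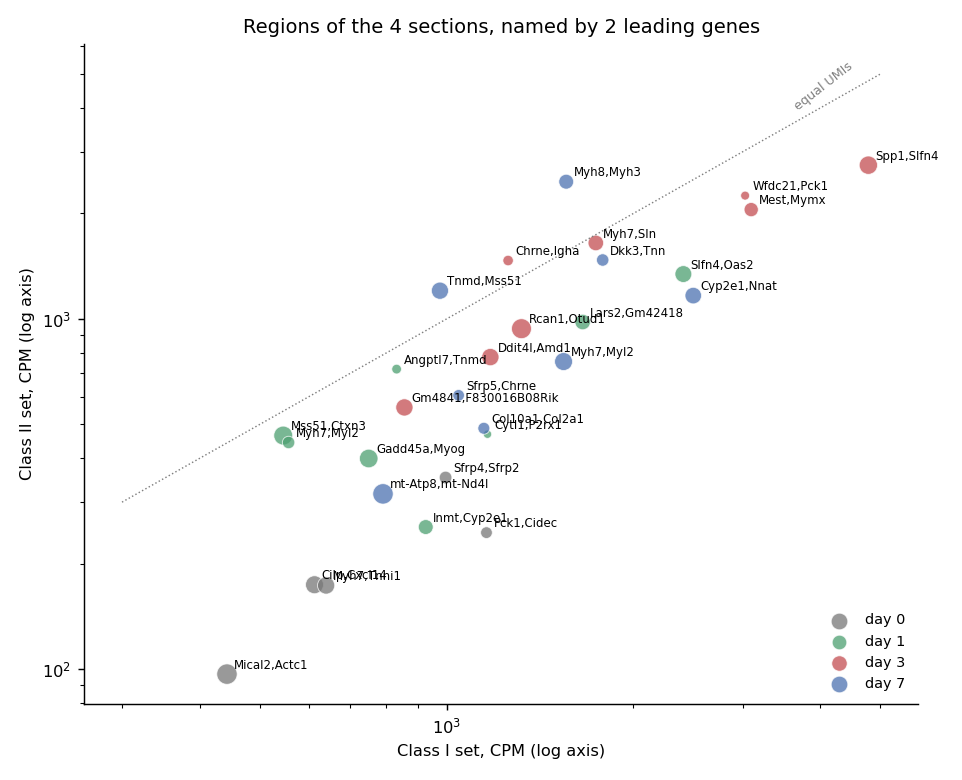
Class II set against class I set, both in CPM on log axes, for the 29 regions of the sections, with the area of a point growing with its number of spots. Labels give 2 leading genes, and the dotted line marks equal UMIs. The regions of day 0 lie at the lower left, the day 3 region led by Spp1 and Slfn4 at the upper right, and 3 regions lie above the line.

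Whether class II and class I shared their highest region at 1 and 3 dpi depended on the clustering. At resolution 1 the class II set at 1 dpi had 1306 CPM (1209 to 1408) in the region led by Igha, Thbs1 and Lars2, whose spots had a median of 1015.5 UMIs, and 1266 CPM (1220 to 1314) in that led by Slfn4, within counting error, while class I was highest in the latter, at 2288 CPM. At 3 dpi class II was then highest in the region led by Abi3bp, Comp and Fmod, at 2989 CPM (2942 to 3036) against 2565 in the region led by Rsad2, Il1rn and Spp1, and class I was highest in the latter, at 5008 against 4439 CPM.

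At 7 dpi the highest regions of class II and class I differed at both resolutions. The class II set was highest, 2464 CPM, in the 334 spots led by Myh8, Myh3, Gpnmb, Myl4 and Spp1, where developmental myosins stand beside Gpnmb and Spp1, both known from macrophages that clear damaged tissue. The macrophage list was also highest of that section there, at 3822 CPM. Class I had 1559 CPM there, and the ratio of 1.58 (1.55 to 1.61) was the highest of the 29 regions. The class I set was highest, 2497 CPM, in the region led by Cyp2e1, Nnat, Cfd, Adipoq and Hp, where class II had 1166 CPM and the ratio was 0.467. The region led by Tnmd, Mss51, Sbk2, Myoc and Dupd1 had a ratio of 1.23 (1.197 to 1.27) and 88.5 class II UMIs per 100 macrophage UMIs, the most of the 29. The region led by the cartilage genes Col10a1, Col2a1, Slc13a5, Col9a3 and Ihh, with 17848 CPM of the chondrogenic list, had 487 CPM of class II and 1148 of class I, with a ratio of 0.424 (0.394 to 0.457). Only the region led by mitochondrial genes and Mstn had less class II at 7 dpi, at 317 CPM. In the region led by Dkk3, Tnn, Aspn, Smoc1 and Col8a2, class II had 1473 CPM and class I 1784.

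The region of the highest level was the same for H2-Aa, H2-Ab1, H2-Eb1 and Cd74 at days 0, 1 and 7, and for H2-K1, H2-D1 and B2m on all days. At 3 dpi H2-Eb1 had 418 CPM (368 to 472) on 256 UMIs in the region led by Wfdc21 and Pck1 and 415 CPM (404 to 427) in that led by Spp1 and Slfn4, which could not be ranked. H2-DMb1 had 91.4 CPM (69.0 to 119) and 75.4 CPM (70.7 to 80.4) in the same regions, again with overlapping intervals. H2-DMa had 95.3 CPM (89.1 to 102) in the region led by Mest and Mymx and 94.3 CPM (89.0 to 99.8) in that led by Spp1 and Slfn4. Ciita ranged from 1.57 to 15.1 CPM over the day 3 regions and from 0.694 to 7.48 over those of day 7.

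Across the 29 regions, Pearson's r of log2(CPM + 1) with the rest of the class II set was 0.993 to 0.996 for the dimer chains and Cd74, 0.927 for H2-DMa, 0.930 for H2-DMb1 and 0.920 for Ciita. For the class I genes with the rest of their own set it was 0.941 (H2-K1), 0.882 (H2-D1) and 0.954 (B2m), and with the class II set 0.729, 0.872 and 0.798. H2-D1 was thus about as like the class II set as the rest of class I. Of 5609 genes with a mean of at least 20 CPM over the regions, those most like the class II set were Unc93b1 (r = 0.951), Csf1r, C1qb, Cybb, Hexa, Ctsz, Pld4 and Ms4a7 (0.921). Unc93b1 carries nucleic-acid-sensing Toll-like receptors to the endosome, and Csf1r is the receptor for macrophage colony-stimulating factor. Among the 8 most like the class I set were Stab1 (0.966), Lamp1, Grn, Cd47, Naaa, Gltp and Asah1 (0.925), which include the scavenger receptor Stab1 and several lysosomal proteins. With each section centred on its own mean, r was 0.804 to 0.945 for the genes named with the class II set and 0.888 to 0.966 for those named with the class I set. Regions of a section share its library, so these are descriptions.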

How the data were processed

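Spatial RNA of 4 sections, 1 per day, was analysed. The authors deposited raw UMI counts per gene and spot under the tissue. The file headers name Space Ranger 1.2.0, the methods and labels name other versions, and per the submitters' processing notes the build was mm10. All deposited spots and 32285 features were used, with no doublet caller and no columns of other samples. Samples were grouped by the day in their titles. Counts were summed per section and scaled to CPM, with exact Poisson intervals for levels and exact conditional binomial (Clopper-Pearson) intervals for ratios, at 95%. For median log2 ratios, counts below 3 were raised to a floor of 3. Fold calls used no floor. With 1 section per group no test was run, and calls are folds of at least 2 among features with at least 10 UMIs over both sections.

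The members and gene lists were chosen with earlier results of these data known. Named genes were the members, genes of the class II, class I, nonclassical, interferon gamma input and co-stimulation lists, the 8 genes most like each set across regions, and 5 leading genes of each region (at least 50 CPM). Interferon response and marker genes named beyond these were chosen after their values were seen. H2-Ea and Mx1 of the lists were not among the features. Some listed genes and leading genes of regions are not reported here. Spots were thinned to 2000 UMIs, exactly for shares and in 20 draws for rho. Regions were Leiden clusters of at least 20 spots (10000 per spot, log1p, 2000 variable genes, 30 components, 15 neighbours, resolution 0.5, seed 1). Promoter windows came from RefSeq (GRCm38.p6). H2-Ab1 and Ciita had no window there, and Cd74 was left out of the motif counts of the members. The calculations were tested on simulated data. R 4.3.3 was used with DESeq2 1.42.0 and edgeR 4.0.16 for scaling factors only, and Python 3.11.15 with Scanpy 1.11.5, leidenalg 0.10.2, matplotlib 3.10.9, SciPy 1.17.1, NumPy 2.4.6 and pandas 2.3.3 for the rest. Other settings tried were these factors, a total without mitochondrial, haemoglobin and adult myofibre genes, spots with at least 1000 UMIs, sets without Cd74 or B2m, a macrophage list without Lyz2 or the C1q genes, thinning to 1000 or 4000 UMIs, rho given the myofibre share, resolution 1, and no minimum count.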

Additional observations from a re-analysis of the deposited data

How the results depend on the processing

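The log2 ratios to day 0 of both sets and of all 10 members kept their sign under each scaling, but their size moved with it. For the class II set at days 1, 3 and 7 they were 1.49, 2.63 and 2.17 with edgeR TMM, 1.49, 2.62 and 2.14 with DESeq2 size factors and 1.504, 2.77 and 2.49 with the total that leaves out mitochondrial, haemoglobin and adult myofibre genes. For the class I set they were 0.32, 1.31 and 0.47, then 0.32, 1.30 and 0.44, then 0.34, 1.46 and 0.79. Without Cd74 the class II set was at 1.74 at day 1, and without B2m the class I set was at 0.67 at day 1 and 1.12 at day 7. TMM lowered the share of higher genes among all that changed from 57.7% to 46.2% at day 1, from 80.1% to 55.8% at day 3 and from 93.9% to 70.4% at day 7. The features counted as higher fell from 5418 to 3377 at day 3 and from 5258 to 2547 at day 7, and those counted as lower rose from 1344 to 2680 and from 343 to 1070. With TMM the class II pathway list had 6 genes at least 2-fold above day 0 at day 7, and the class I pathway list 7 at day 3 and 2 at day 7.

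The class II to class I ratio was 0.158, 0.370, 0.398 and 0.520 at days 0, 1, 3 and 7 without Cd74, and 0.531, 1.07, 1.32 and 1.67 without B2m. Class II per 100 macrophage UMIs was 59.2, 77.9, 48.2 and 111 without Lyz2, and 75.8, 52.0, 32.0 and 105 without C1qa, C1qb and C1qc. Limiting these ratios and the set log2 ratios to spots with at least 1000 UMIs left them within their intervals.

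Thinned to 1000 UMIs, the share of spots with a class II UMI was 14.5%, 38.3%, 62.4% and 49.4%, and with a class I UMI 46.3%, 57.0%, 76.0% and 68.9%. At 4000 UMIs the shares were 39.8%, 69.7%, 92.6% and 83.5%, and 88.4%, 88.1%, 98.3% and 97.2%, so for class I the order of days 0 and 1 turned there. Spearman's rho of class II with class I was 0.225, 0.355 and 0.120 at days 1, 3 and 7 when thinned to 1000 UMIs, 0.133, 0.591 and 0.291 at days 0, 3 and 7 when thinned to 4000, and 0.187, 0.177 and 0.117 at days 1, 3 and 7 given the myofibre share. Spearman's rho of class II with the macrophage list was 0.093, 0.258, 0.450 and 0.266 at 1000 UMIs, 0.210, 0.360, 0.666 and 0.522 at 4000, and 0.258, 0.259 and 0.321 at days 1, 3 and 7 given the myofibre share. At resolution 1 the highest region had 2989 CPM of class II at day 3 and 1620, 2288, 5008 and 3337 CPM of class I at days 0, 1, 3 and 7. The highest regions of class II and class I then differed at days 1 and 3 as well, at day 1 within counting error for class II.

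No section was replicated, so no value shows how animals differ, and the days cannot be told apart from the sections, libraries and mice that stand for them. No paired analysis was possible because each day had 1 section. Depth limits Ciita most, with 11 UMIs at day 0. The causes of the differences between settings were not tested.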
